A study of Mus musculus with 6 samples.

Results

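Levels of 10 genes of the DNA methylation machinery were measured by RNA-seq in mouse spermatogonial stem cells kept in culture. These are the stem cells from which sperm arise. The genes were taken by name from the 24495 gene symbols of the count table: Dnmt1, Uhrf1, Uhrf2, Dnmt3a, Dnmt3b, Dnmt3l, Tet1, Tet2, Tet3 and Tdg. All 10 had a row, and 9 had enough counts to be tested among 14855 genes, while Tdg did not. The treated cells received 2 uM EPZ5676 (pinometostat), an inhibitor of the histone H3K79 methyltransferase DOT1L, and the control cells 0.2% ethanol, each for 2 weeks. Both groups came from DBA2 testes of postnatal days 5 to 8 and had 3 libraries each, numbered 1 to 3 and described as biological triplicates. The labels do not say whether feeder cells were present, whether animals were pooled, or what the replicate numbers stand for.

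DNA methylation is the addition of a methyl group to cytosine, in mammals mostly where cytosine precedes guanine (CpG). DNMT1 copies the marks onto the new strand after replication, guided by UHRF1, which binds hemimethylated CpG. DNMT3A and DNMT3B place marks on unmethylated DNA, with DNMT3L as a cofactor that has no catalytic activity of its own, and TET enzymes oxidise the methyl group so that TDG can excise the oxidised base. In male germ cells of the mouse, DNMT3L and the DNMT3 enzymes set methylation before birth at imprinted loci and transposons.

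Gene counts totalled 19866337 to 54645903 in the EPZ5676 libraries and 17784332 to 21046473 in the ethanol libraries, with EPZ5676 replicate 2 the deepest. All 17 markers of spermatogonial stem cells had counts, among them Dazl at 1671 to 1819 CPM and Ddx4 at 626 to 679 CPM over the 6 libraries (CPM, counts per 1000000 after TMM scaling). Fibroblast markers were present and highest in both replicate 2 libraries. Summed over 15 fibroblast genes, they stood at 740, 1154 and 765 CPM in EPZ5676 replicates 1, 2 and 3, against 818, 1455 and 895 CPM in ethanol replicates 1, 2 and 3. All 15 had counts in every library. The sum was lower with EPZ5676 within each replicate number. Of the Sertoli and Leydig markers, Fshr stood at 0 to 0.0475 CPM and Insl3 at 0 to 0.0511 CPM, while Wt1 stood at 17.5 to 35.6 CPM and Star at 5.03 to 9.63 CPM. Of the 6 Leydig genes 5 stood below 1 CPM in all libraries, and only Star, at 5.63 ± 0.606 CPM in EPZ5676 libraries and 8.05 ± 1.41 CPM in ethanol libraries (SD, n = 3 each), could be tested (edgeR adjusted p of 0.616). Some germ cell markers also differed in their means. Gfra1, a receptor of the stem cell niche factor GDNF, stood at 52.2 ± 7.66 CPM in EPZ5676 libraries and 69.45 ± 3.30 CPM in ethanol libraries (edgeR adjusted p of 0.596). Cdh1, the E-cadherin gene, averaged 12.9 ± 2.41 CPM in EPZ5676 libraries and 18.2 ± 1.41 CPM in ethanol libraries (edgeR adjusted p of 0.596). Like Star, Gfra1 and Cdh1 had EPZ5676 libraries wholly below ethanol libraries, as did 1135 (7.64%) of all genes tested. Etv5, another stem cell marker, went the other way, at 100 ± 5.45 CPM in EPZ5676 libraries and 88.2 ± 4.31 CPM in ethanol libraries (edgeR adjusted p of 0.67). Its EPZ5676 libraries lay wholly above its ethanol libraries, as did those of 1072 (7.22%) of all genes tested. Of the markers of differentiating spermatogonia, Sohlh2 had 253 ± 15.6 CPM in EPZ5676 libraries and 214 ± 5.95 CPM in ethanol libraries, and Kit had 132 ± 18.0 CPM in EPZ5676 libraries and 171 ± 24.3 CPM in ethanol libraries (edgeR adjusted p of 0.596 and 0.625). Of the 17 stem cell markers 7 were higher and 10 lower, with a median log2 fold change of -0.03. With the replicate block 5 were lower and 1 higher at an unadjusted p under 0.05. At that threshold 1412 (9.51%) of all 14855 genes were lower and 1339 higher. No marker was called. Star, Gfra1, Cdh1, Etv5, Sohlh2 and Kit were named after their values were seen, and the part of the markers in the members' values was not tested. In bulk RNA, fewer cells of a type and less RNA per cell cannot be told apart. Dot1l, whose protein is the target of EPZ5676, stood at 251, 279 and 199 CPM in EPZ5676 replicates 1, 2 and 3, against 198, 205 and 202 CPM in ethanol replicates 1, 2 and 3, and was not called. An inhibitor of the enzyme need not change its RNA, so this level does not check the treatment.

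None of the 9 tested members was called different between EPZ5676 and ethanol. Dnmt1 was 1.13-fold higher and Dnmt3b 1.16-fold lower in the EPZ5676 libraries, each in the same direction within all 3 replicate numbers. The scarce Tet1 was 1.41-fold higher in the same way, and Dnmt3a was also higher in all 3. Such agreement was common: of all genes tested, 2896 (19.5%) were higher and 3313 (22.3%) lower in all 3 numbers. Uhrf1, Uhrf2, Dnmt3a and Tet3 differed by less than 5% in the fit, and Dnmt3l by a similar amount with a wide error. With Benjamini-Hochberg adjustment over all genes, the quasi-likelihood test of edgeR gave the 9 members an adjusted p from 0.644 to 0.977. That fit called 0 of 14855 genes (0%), so its lack of calls is not particular to these members. At an unadjusted p under 0.05 it gave 1101 genes (7.41%), and of the members 1, Dnmt1. With the replicate number as a block, the same test called 97 genes (0.653%) and again 0 members, with adjusted p from 0.11 to 0.954. In that fit 3 members, Dnmt1, Dnmt3b and Tet1, had an unadjusted p under 0.05, where 2751 genes (18.5%) did. The median log2 fold change of the 9 members was 0.05, against -0.01 for all genes tested, and the median size of the change was 0.07 against 0.12.

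**Figure D1:**
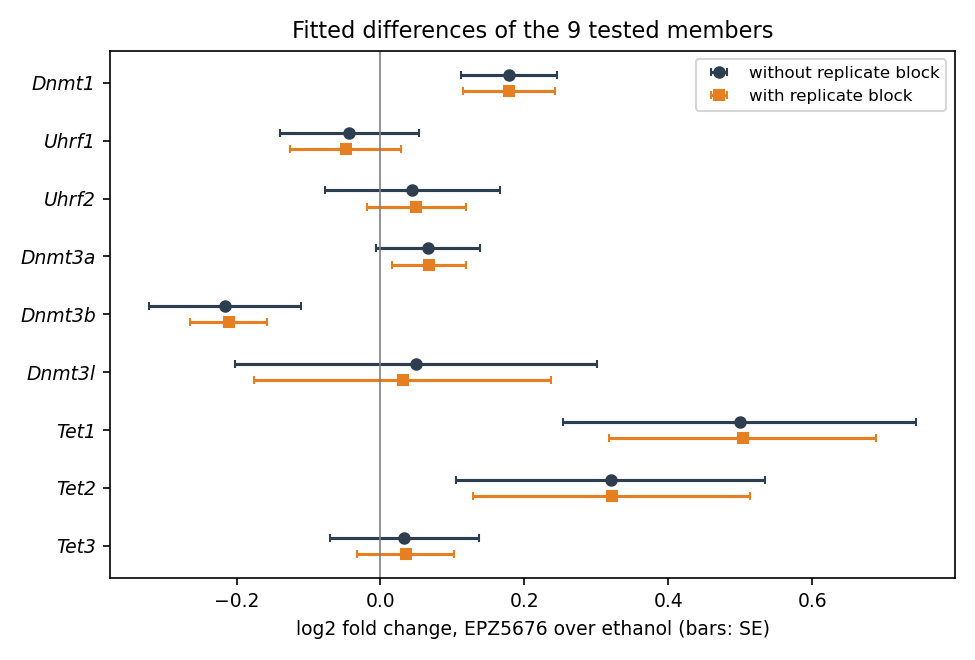
Log2 fold changes of the 9 tested members, EPZ5676 over ethanol, with SE as bars, from the fit without the replicate block (circles) and with it (squares). Tet1 lies farthest above 0 at 0.50 and Dnmt3b farthest below at -0.22, and no member was called in either fit.

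The maintenance genes Dnmt1 and Uhrf1 were the most abundant members per length. With CPM divided by kilobases of annotated exon, Dnmt1 averaged 132 ± 6.30 CPM per kb in EPZ5676 libraries and 116 ± 5.02 in ethanol libraries (SD, n = 3 each). Uhrf1 followed at 106.5 ± 12.8 CPM per kb in EPZ5676 libraries and 109.7 ± 6.53 in ethanol libraries. In EPZ5676 libraries every Dnmt1 value per kb was above every Uhrf1 value, while in ethanol libraries the ranges overlapped. Below them came Dnmt3b, with 39.2 ± 3.20 CPM per kb in EPZ5676 libraries and 45.5 ± 5.49 in ethanol libraries. Uhrf2 had 32.2 ± 2.72 with EPZ5676 and 31.3 ± 5.03 with ethanol, Tet3 had 18.9 ± 1.63 with EPZ5676 and 18.5 ± 2.21 with ethanol, and Dnmt3a had 16.4 ± 0.535 with EPZ5676 and 15.6 ± 0.862 with ethanol, all in CPM per kb. In either group, the libraries of these 4 neighbours did not overlap. Dnmt3l, Tet2 and Tet1 were far lower, at 1.70 ± 0.541, 0.560 ± 0.0375 and 0.250 ± 0.0550 CPM per kb in EPZ5676 libraries and 1.63 ± 0.224, 0.449 ± 0.112 and 0.174 ± 0.0298 in ethanol libraries. The order of means was the same when the longest coding transcript was used as the length. Exon lengths came from GENCODE M21 on GRCm38, not from the annotation used for counting, and short isoforms would be understated by them.

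**Figure D2:**
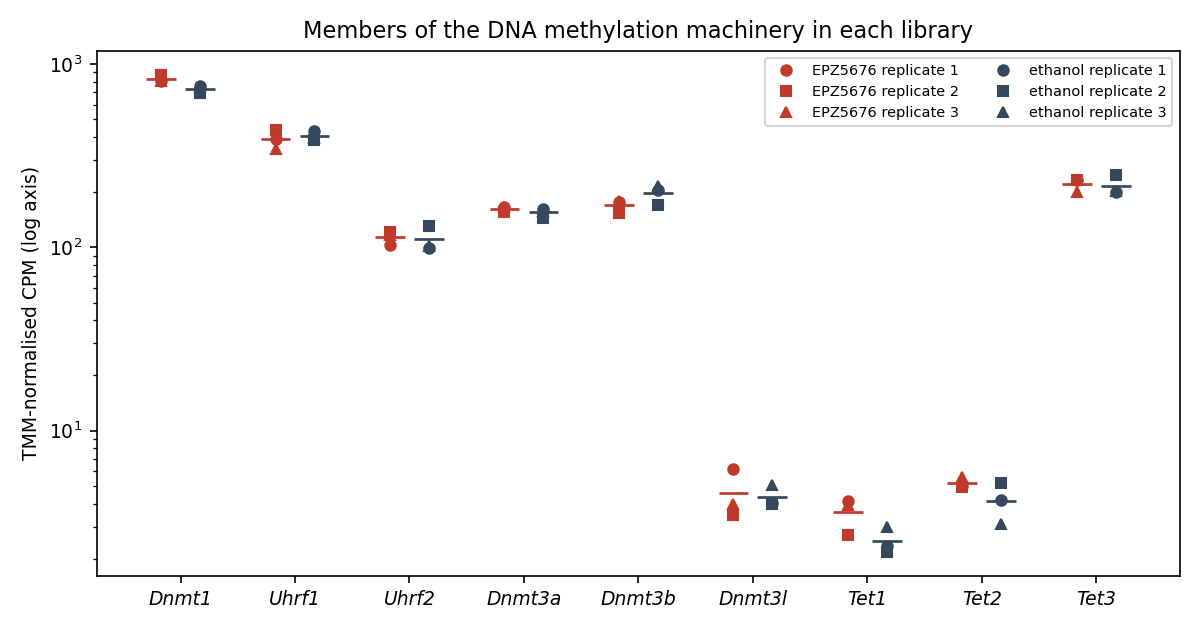
TMM-normalised CPM of the 9 tested members in each library on a log axis, EPZ5676 libraries left of ethanol libraries. Symbols mark the replicate number and lines the group mean. The members fall into an abundant set above 98 CPM and a scarce set (Dnmt3l, Tet1 and Tet2) below 7 CPM in all 6 libraries.

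Dnmt1, the maintenance methyltransferase, had 809, 875 and 804 CPM in EPZ5676 replicates 1, 2 and 3, against 756, 696.5 and 745 CPM in ethanol replicates 1, 2 and 3. All 3 EPZ5676 libraries were above all 3 ethanol libraries, and Dnmt1 was the only tested member whose groups did not overlap. Among all genes tested, 1072 (7.22%) had EPZ5676 libraries wholly above ethanol libraries. The log2 fold change was 0.18 ± 0.07 (SE), with an edgeR unadjusted p of 0.0273 and an adjusted p of 0.644. The difference within replicate numbers was largest in number 2, at 0.33 on the log2 scale, against 0.10 and 0.11 in numbers 1 and 3. Without both replicate 2 libraries the log2 fold change was 0.10 ± 0.05 (edgeR adjusted p of 0.395).

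RefSeq lists 3 starts for Dnmt1, and the 300 bases around each (250 before and 50 after) hold 33, 12 and 2 CpG sites. The promoter of Dnmt3b, the member that was lower with EPZ5676 in all 3 replicate numbers, holds 30. The Dnmt1 window with the most CpG sites and the Dnmt3b window are shown as the starts of the 2 well-counted members that differed in opposite directions, with CpG in capitals, both from GRCm38.p6.
Dnmt1 (chr9:20952574-20952873, minus strand): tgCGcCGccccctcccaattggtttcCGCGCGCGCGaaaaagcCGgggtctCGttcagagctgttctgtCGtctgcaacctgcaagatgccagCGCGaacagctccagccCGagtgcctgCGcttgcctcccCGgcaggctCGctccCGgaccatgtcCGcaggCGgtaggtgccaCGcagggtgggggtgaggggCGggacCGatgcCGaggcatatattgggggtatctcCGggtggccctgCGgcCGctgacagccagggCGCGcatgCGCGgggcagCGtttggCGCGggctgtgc
Dnmt3b (chr2:153649199-153649498, plus strand): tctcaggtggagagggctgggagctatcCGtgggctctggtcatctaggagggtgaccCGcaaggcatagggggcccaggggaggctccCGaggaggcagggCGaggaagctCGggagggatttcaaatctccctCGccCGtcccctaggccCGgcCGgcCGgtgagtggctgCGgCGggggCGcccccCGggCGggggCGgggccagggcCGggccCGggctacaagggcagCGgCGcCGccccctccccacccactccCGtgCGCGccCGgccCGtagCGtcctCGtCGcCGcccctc
The median over all 32851 RefSeq windows of this length was 7 CpG sites, and 13 of the 17 windows of the 10 members exceeded it. The motif TTTGGCGC, a form of the E2F site associated with S phase genes, was searched on both strands and was found in the Dnmt1 window shown, from base 284 to base 291, and in no other member window. It occurs in 0.514% of all windows. A second form, TTTCCCGC, occurs in 1.07% of all windows and in none of the members. The counts do not tell the starts apart.

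Uhrf1, which brings DNMT1 to replicated DNA, had 391, 437 and 343 CPM in EPZ5676 replicates 1, 2 and 3, against 429, 384 and 394 CPM in ethanol replicates 1, 2 and 3. The groups overlapped, and the highest and the lowest library were both EPZ5676. Fitted over all genes, the log2 fold change was -0.04 ± 0.10 (SE; edgeR adjusted p of 0.937). This sign was not stable: the value was 0.040 without EPZ5676 replicate 3 and 0.0059 without ethanol replicate 1, and in replicate number 2 Uhrf1 and Dnmt1 were both higher with EPZ5676. A share of reads within a library needs no scaling between libraries. The Uhrf1 share of summed Dnmt1 and Uhrf1 counts was 32.6%, 33.3% and 29.9% in EPZ5676 replicates 1, 2 and 3, against 36.2%, 35.5% and 34.6% in ethanol replicates 1, 2 and 3. Every EPZ5676 share was below every ethanol share, with means of 31.9% ± 1.79 in EPZ5676 libraries and 35.4% ± 0.819 in ethanol libraries (SD, n = 3 each). No test was made of this share, and Dnmt1 alone already had groups that did not overlap. Of the other shares given below, those of Dnmt3b and Tet3 also lay wholly lower with EPZ5676, while that of Uhrf2 overlapped. How often other pairs of genes do so was not computed. Of the 50-base windows of Uhrf1 transcripts, 17.9% also occur in transcripts of other genes, mostly the pseudogene Gm5648, which has no row under that name in the count table.

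Uhrf2, a paralog of Uhrf1 that does not replace it in maintenance in mouse embryonic stem cells, had 103, 122 and 117 CPM in EPZ5676 replicates 1, 2 and 3, against 98.7, 131 and 102 CPM in ethanol replicates 1, 2 and 3. The highest library was ethanol replicate 2 and the groups overlapped. Its log2 fold change was 0.04 ± 0.12 (SE; edgeR adjusted p of 0.952). Uhrf2 made up 20.9%, 21.8% and 25.5% of the summed Uhrf1 and Uhrf2 counts in EPZ5676 replicates 1, 2 and 3, against 18.7%, 25.5% and 20.6% in ethanol replicates 1, 2 and 3, again with overlapping groups.

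S phase genes, the group with which Dnmt1 and Uhrf1 are known to be transcribed, showed no call. Of 26 genes, all tested, 11 were higher and 15 lower in EPZ5676 libraries, and the median log2 fold change was -0.03 against -0.01 for all genes. Summed S phase CPM was 4188, 4357 and 4137 in EPZ5676 replicates 1, 2 and 3, against 4384, 4058 and 4241 in ethanol replicates 1, 2 and 3. The groups overlapped. Within replicate numbers 1, 2 and 3 the EPZ5676 sum was lower, higher and lower, the same signs as Uhrf1, while Dnmt1 was higher in all 3. The Dnmt1 difference was largest in number 2, at 0.33 on the log2 scale, against 0.10 and 0.11 in numbers 1 and 3. The part of S phase transcripts in the Dnmt1 difference was not tested. The smallest p in the list belonged to Cdc6, a replication licensing factor, at 57.3 ± 4.44 CPM in EPZ5676 libraries and 69.3 ± 3.52 CPM in ethanol libraries (SD, n = 3 each), with an edgeR adjusted p of 0.601. Chaf1a, a subunit of the chromatin assembly factor at replication forks, stood at 218 ± 15.6 CPM in EPZ5676 libraries and 194.5 ± 9.97 CPM in ethanol libraries (edgeR adjusted p of 0.676).

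Among the de novo methyltransferases, Dnmt3b was lower and Dnmt3a slightly higher in the EPZ5676 means. The share of Dnmt3b in their summed counts did not overlap between the groups, and how often this holds for other gene pairs was not computed. Dnmt3b had 177, 153 and 178 CPM in EPZ5676 replicates 1, 2 and 3, against 206, 170 and 215 CPM in ethanol replicates 1, 2 and 3. Both replicate 2 libraries were the lowest of their group, and ethanol replicate 2 lay below EPZ5676 replicates 1 and 3, so the groups overlapped. Within each replicate number the EPZ5676 library was the lower, by 0.22, 0.15 and 0.27 on the log2 scale in numbers 1, 2 and 3. Fibroblast marker sums were likewise lower with EPZ5676 in all 3 numbers, but highest in both replicate 2 libraries, where Dnmt3b was lowest. Of the 15 fibroblast genes 3 were higher and 12 lower, with a median log2 fold change of -0.23, and 7 were lower with the replicate block at an unadjusted p under 0.05, where 1412 (9.51%) of all genes were. None of the 15 was called, and their part in the Dnmt3b difference was not tested. Among all genes tested, 3313 (22.3%) were lower in all 3 numbers and 2896 (19.5%) higher in all 3. Of the 9 members, 1 was lower in all 3 (Dnmt3b) and 3 were higher in all 3 (Dnmt1, Dnmt3a and Tet1).

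The log2 fold change of Dnmt3b was -0.22 ± 0.11 (SE), with an edgeR unadjusted p of 0.073 and an adjusted p of 0.68. With the replicate block it was -0.21 ± 0.05, with an edgeR unadjusted p of 0.00387 and an adjusted p of 0.11. Of the 18 alternatives run, only the blocked fit without both replicate 2 libraries called Dnmt3b lower, at -0.24 ± 0.06 (edgeR adjusted p of 0.0166), where 795 of 14822 genes (5.36%) were called on 1 residual degree of freedom. Of the 50-base windows of Dnmt3b transcripts, 11.5% also occur in the transcript of Dnmt3c, a neighbouring copy that acts in male germ cells. Neither Dnmt3c nor its older symbols Gm14490 and Dnmt3b-ps1 name a row of the count table, so reads of the 2 genes may not be told apart.

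**Figure D3:**
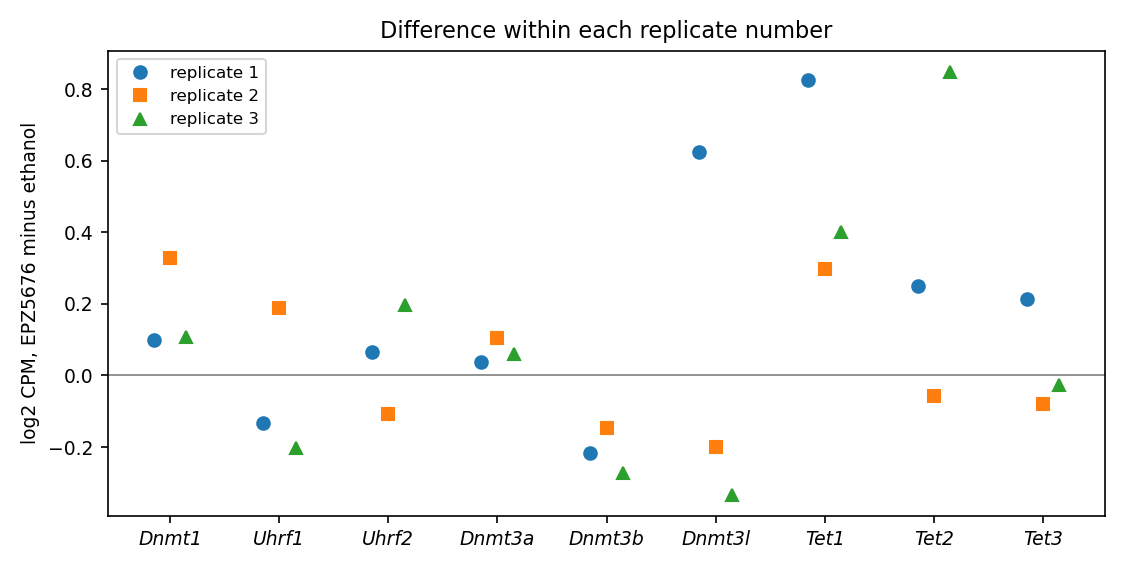
Difference in log2 CPM between the EPZ5676 and the ethanol library of the same replicate number, for the 9 tested members. Dnmt1, Dnmt3a and Tet1 lie above 0 in all 3 numbers and Dnmt3b below 0 in all 3. The scarce Dnmt3l, Tet1 and Tet2 spread most.

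Dnmt3a had 165, 156 and 165 CPM in EPZ5676 replicates 1, 2 and 3, against 161, 145 and 158.5 CPM in ethanol replicates 1, 2 and 3. The means were 162 ± 5.30 CPM in EPZ5676 libraries and 155 ± 8.54 CPM in ethanol libraries (SD, n = 3 each), and the groups overlapped. The log2 fold change was 0.07 ± 0.07 (SE; edgeR adjusted p of 0.872). Dnmt3b therefore supplied 51.7%, 49.6% and 51.9% of the summed Dnmt3a and Dnmt3b counts in EPZ5676 replicates 1, 2 and 3, against 56.1%, 53.9% and 57.5% in ethanol replicates 1, 2 and 3. Every EPZ5676 share was below every ethanol share. The means were 51.0% ± 1.27 in EPZ5676 libraries and 55.8% ± 1.82 in ethanol libraries (SD, n = 3 each), a difference of -4.80 percentage points. Within replicate numbers 1, 2 and 3 the differences were -4.39, -4.33 and -5.67 points, similar in all 3. Exact 95% intervals of the shares, which cover counting error only, ran from 50.7% to 53.05% in EPZ5676 replicate 3, the highest of its group, and from 52.6% to 55.2% in ethanol replicate 2, the lowest of its group. No test was made of this share, a comparison chosen with earlier results of these data known. It joins Dnmt3b, lower in all 3 replicate numbers, with Dnmt3a, higher in all 3.

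**Figure D4:**
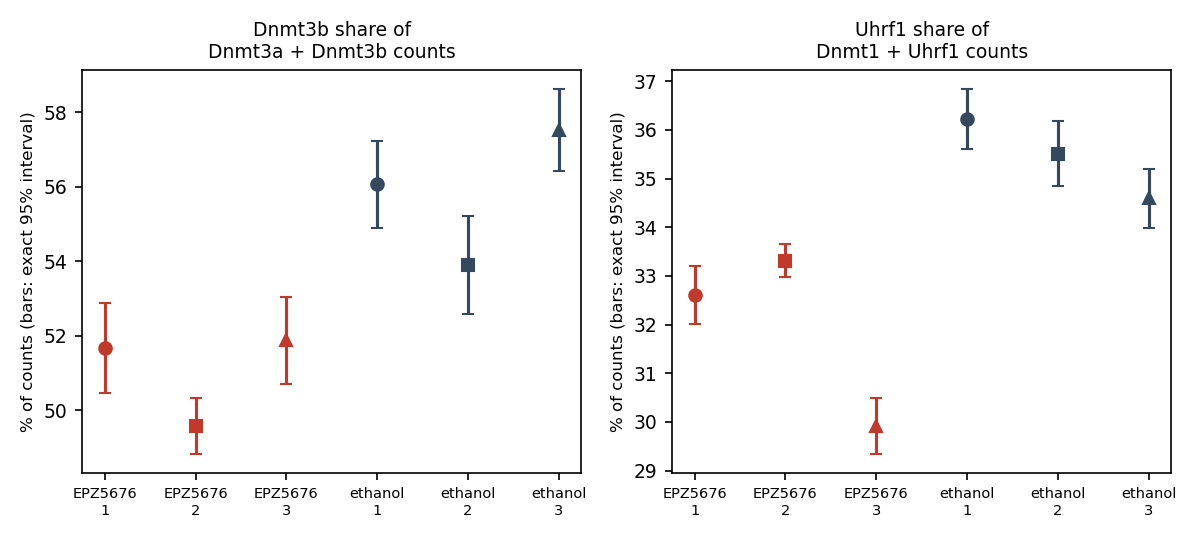
Left, share of Dnmt3b in the summed Dnmt3a and Dnmt3b counts. Right, share of Uhrf1 in the summed Dnmt1 and Uhrf1 counts. Each point is a library, EPZ5676 left of ethanol, with exact 95% binomial intervals as bars, and the axes do not start at 0. In both panels the 3 EPZ5676 points lie below the 3 ethanol points, and neither share was tested.

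Dnmt3l, the cofactor, was scarce, with 121, 191 and 82 counts in EPZ5676 replicates 1, 2 and 3, against 79, 71 and 106 counts in ethanol replicates 1, 2 and 3. These correspond to 6.19, 3.47 and 3.996 CPM with EPZ5676, against 4.02, 3.98 and 5.03 CPM with ethanol. EPZ5676 libraries held both the highest and the lowest value, and the groups overlapped. Its fitted log2 fold change was 0.05 ± 0.25 (SE; edgeR adjusted p of 0.977), and without EPZ5676 replicate 1 it was -0.23 ± 0.23.

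Of the 17 partners of DNMT1 and the DNMT3 enzymes listed, 15 were in the table and were tested. None was called, 11 were higher and 4 lower, and the median log2 fold change was 0.02. Dppa3, whose protein keeps UHRF1 from hemimethylated DNA in mouse oocytes, had the smallest p. It stood at 34.4 ± 2.96 CPM in EPZ5676 libraries and 24.5 ± 3.95 CPM in ethanol libraries (SD, n = 3 each). For Dppa3 edgeR gave 0.48 ± 0.14 (SE) on the log2 scale and an adjusted p of 0.596, or 0.0518 with the replicate block. Trim28, a corepressor recruited by KRAB zinc finger proteins, had 801 ± 16.5 CPM in EPZ5676 libraries and 762.5 ± 13.2 CPM in ethanol libraries (edgeR adjusted p of 0.814).

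Among the TET dioxygenases, Tet3 supplied nearly all counts. Its share of the summed counts of the 3 genes was 95.5% to 96.8% in EPZ5676 libraries and 96.9% to 97.1% in ethanol libraries. Tet3 had 232, 233 and 199.7 CPM in EPZ5676 replicates 1, 2 and 3, against 200.3, 247 and 203 CPM in ethanol replicates 1, 2 and 3. The groups overlapped and ethanol replicate 2 was the highest library. The log2 fold change was 0.03 ± 0.10 (SE; edgeR adjusted p of 0.96).

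Tet1, a TET enzyme with a CpG-binding CXXC domain, had 81, 148 and 81 counts in EPZ5676 replicates 1, 2 and 3, against 46, 39 and 63 counts in ethanol replicates 1, 2 and 3. Scaled for depth these were 4.14, 2.69 and 3.95 CPM with EPZ5676, against 2.34, 2.18 and 2.99 CPM with ethanol. Ethanol replicate 3 lay above EPZ5676 replicate 2, so the groups overlapped, while within each replicate number the EPZ5676 library was the higher. Tet1 had the largest log2 fold change of the members, 0.50 ± 0.25 (SE), with an edgeR unadjusted p of 0.0753 and an adjusted p of 0.682. The within-number differences were uneven, at 0.82, 0.30 and 0.40 on the log2 scale in numbers 1, 2 and 3.

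Tet2, which lacks the CXXC domain, had 97, 273 and 114 counts in EPZ5676 replicates 1, 2 and 3, against 82, 92 and 65 counts in ethanol replicates 1, 2 and 3. The levels were 4.96, 4.95 and 5.55 CPM with EPZ5676, against 4.17, 5.15 and 3.09 CPM with ethanol. The EPZ5676 libraries were close together, and ethanol replicate 2 fell inside their range. For Tet2 the log2 fold change was 0.32 ± 0.21 (SE; edgeR adjusted p of 0.774).

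TET partners and the enzymes that make or remove TET cofactors and inhibitors had 19 of 21 listed symbols in the table, all tested. None was called without the block, 12 were higher and 7 lower, and the median log2 fold change was 0.06. Idh3g, a subunit of the mitochondrial isocitrate dehydrogenase that makes the TET cosubstrate 2-oxoglutarate, had 66.2 ± 10.7 CPM in EPZ5676 libraries and 45.5 ± 7.18 CPM in ethanol libraries (SD, n = 3 each). Its log2 fold change was 0.54 ± 0.15 (SE), with an edgeR adjusted p of 0.596. With the replicate block it rose, at 0.54 (edgeR adjusted p of 0.0267), where 48 of all genes (0.323%) were called higher. Leaving out replicate number 1 removed this call: 0 genes then passed in the blocked edgeR fit, although 1169 had an unadjusted p below 0.05. Ogdh, which consumes 2-oxoglutarate in the citric acid cycle, had 253 ± 9.08 CPM in EPZ5676 libraries and 223 ± 10.9 CPM in ethanol libraries (edgeR adjusted p of 0.645).

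Tdg, the glycosylase that removes oxidised methylcytosine, was almost without counts. It had 0, 1 and 0 counts in EPZ5676 replicates 1, 2 and 3, against 1, 0 and 0 counts in ethanol replicates 1, 2 and 3. A count of 0 allows up to 3 counts, which is 0.153 and 0.146 CPM in EPZ5676 replicates 1 and 3. In ethanol replicates 2 and 3 it is 0.168 and 0.142 CPM. EPZ5676 replicate 2 and ethanol replicate 1, with 1 count each, are not covered by this limit. No fold is given. Tdg has near-identical copies. Its coding sequence of 1263 bases matched the pseudogene Tdg-ps at 98.7% of aligned bases and the pseudogene Gm9855 at 99.2%, in GENCODE M21 on GRCm38. The 60 coding bases from 121 to 180, counted from the A of the start codon, are shown as the first stretch in which both copies carry a difference away from the ends, and capitals mark bases that differ from Tdg.
Tdg: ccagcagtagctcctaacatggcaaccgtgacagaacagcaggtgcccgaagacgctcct
Gm9855: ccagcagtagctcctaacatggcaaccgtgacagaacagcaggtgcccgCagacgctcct
Tdg-ps: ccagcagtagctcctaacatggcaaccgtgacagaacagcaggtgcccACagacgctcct
Of the 50-base windows of Tdg coding transcripts, 61.4% also occur in transcripts of 5 other genes, and of the 100-base windows 41.1%. For the other 9 members the share of 100-base windows was at most 6.57%, that of Uhrf1. Gm9855 had 0 counts in all 6 libraries, and Tdg-ps has no row under that name. The sources used here do not say how reads with several alignments were counted, and the part of these copies in the low count was not tested. The remaining windows of Tdg are not shared with an annotated transcript, and the gene totals of 0 or 1 include them without a count per window. Exons of Tdg also overlap those of the opposite-strand gene Glt8d2 over 367 bases, and the use of strand in counting is not given. With these points untested, the count is not read as a level of Tdg RNA.

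Genes of demethylation and base excision repair, 19 of 19 tested, had 0 calls, 8 higher and 11 lower, with a median log2 fold change of -0.02. Neil1, a glycosylase that can act after TDG, had 2.92 ± 0.333 CPM in EPZ5676 libraries and 1.91 ± 0.0762 CPM in ethanol libraries (SD, n = 3 each), with a log2 fold change of 0.61 ± 0.20 (SE; edgeR adjusted p of 0.601). Apobec3, a cytidine deaminase gene, had 15.9 ± 0.805 CPM in EPZ5676 libraries and 18.4 ± 3.10 CPM in ethanol libraries (edgeR adjusted p of 0.776). The 10 methyl-CpG readers and their relatives had 0 calls, 4 higher and 6 lower, with a median of -0.03. Mbd6 and Mbd5, named for their methyl-CpG-binding domain, had log2 fold changes of 0.29 ± 0.12 and -0.18 ± 0.12 (SE), with edgeR adjusted p of 0.661 and 0.779. Of 22 genes of the methionine cycle and folate metabolism, which supply the methyl donor S-adenosylmethionine, 19 were tested. None was called, 6 were higher and 13 lower, and the median was -0.05. Mtap, of the methionine salvage pathway, and Ahcyl2, a relative of the adenosylhomocysteine hydrolase, had log2 fold changes of -0.21 ± 0.11 and -0.18 ± 0.09 (SE), with edgeR adjusted p of 0.682 and 0.713. Some genes stand in more than one of the lists.

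**Figure D5:**
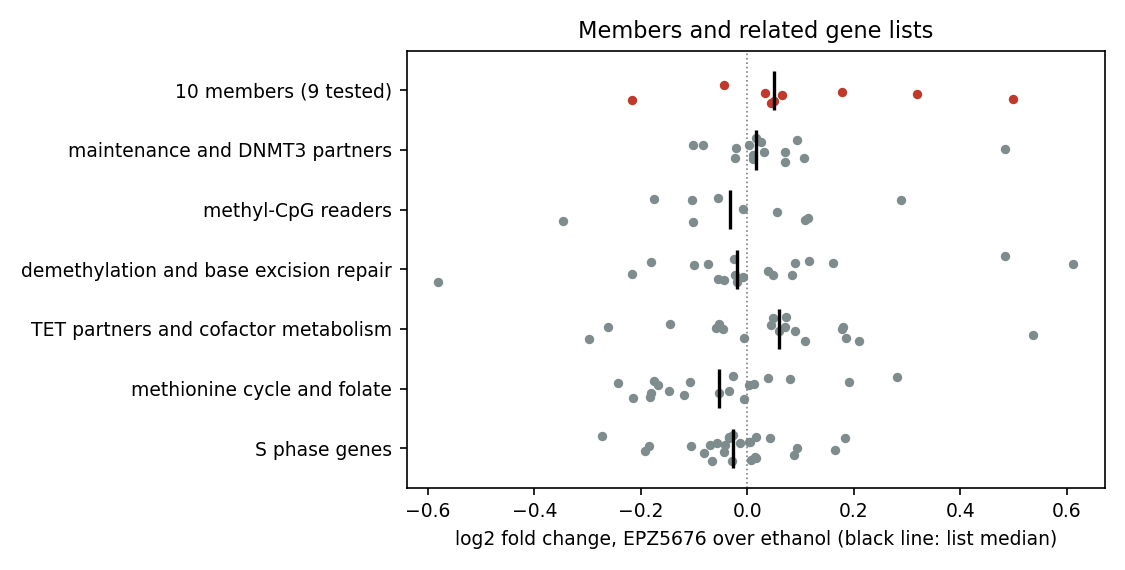
Log2 fold changes, EPZ5676 over ethanol, of the 9 tested members and of the tested genes of 6 related lists, without the replicate block. Each point is a gene and each black line a median. The medians lie between -0.05 and 0.06, and no gene shown was called in this fit.

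The genes whose profile over the 6 libraries was most like a member were found by the root mean square difference of log2 CPM centred on each gene's mean, among genes of at least 5 CPM. For Dnmt1 these were 1700018B24Rik, Ppp2r5b and Mkrn3, at 0.01, 0.03 and 0.03 on the log2 scale, where the median gene lay at 0.17. For Dnmt3a they were Coq5, Psme3 and Eftud2, at 0.01 each against a median of 0.14. For Dnmt3b they were Mcam, Slc25a31 and Arhgef3, at 0.03 each against a median of 0.20. For Tet1, whose own counts are few, they were Gng4, Ttc34 and Phactr2, at 0.07 to 0.08 against a median of 0.32. None of the other members was among these nearest genes, but only 3 genes were listed for each. Dnmt3l, Tet1, Tet2 and Tdg averaged under 5 CPM over the 6 libraries, so they could not appear as neighbours.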

How the data were processed

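Per the labels' protocols, RNA was extracted with TRIzol and poly(A) libraries were prepared with a strand-specific kit, 3 from cells given EPZ5676 and 3 from cells given ethanol. The authors deposited whole-number counts per gene symbol. The submitters' processing notes name STAR, featureCounts, edgeR, Bowtie and the build mm9. Their versions and settings, the annotation, the use of strand and the handling of multiply aligned reads are each not given in the sources used here. A deposited table of repeat families was not used.

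The counts were used as deposited. In R 4.3.3, genes passing filterByExpr were scaled by TMM and tested for a difference between EPZ5676 and ethanol with edgeR 4.0.16 (quasi-likelihood, 2-sided). Benjamini-Hochberg adjustment covered all 14855 genes, with a threshold of 0.05. SE is the log2 fold change divided by the root of its F statistic. P-values measure the spread between these libraries, which may be partly technical. The test was checked on counts simulated without a replicate effect, so that check does not cover the pairing of libraries. No 2 libraries were copies within sampling noise (chi-square per degree of freedom of 3.86 or more over genes with at least 20 counts in both). Alternatives used DESeq2 1.42.0, limma-voom (limma 3.58.1), other scalings and filters, a replicate block and fewer libraries.

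Deviations from the group mean correlated at 0.468, 0.639 and 0.373 across genes for libraries sharing replicate numbers 1, 2 and 3, and at -0.542 to 0.318 for the others. All 3 exceed 0.1, but this cut-off does not separate shared from unshared numbers. Number 1 of EPZ5676 and number 3 of ethanol gave 0.318, and number 3 of EPZ5676 and number 1 of ethanol 0.149. Each shared number still stood above every unshared combination, by little for number 3. Deviations cancel within each group, so higher values for shared numbers go with lower values for the others. Part of this gap is thus built in. The numbers were treated as pairs on the strength of these same data, so p-values with the replicate block depend on that choice. The fit without the block did not use the pairs. Residual degrees of freedom were 4 without the block and 2 with it.

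The members, gene lists and named genes were chosen with earlier results of these data known. Named are the members, Dot1l, per list the called genes or else the 2 smallest p, and the 3 nearest profiles (pseudocount 0.5 CPM) of 4 members. Cell type markers served to check the label and are given as values beside the members. Members were matched to GENCODE M21 and RefSeq by symbol, 10 of 10, for lengths, shared windows and promoters on GRCm38; these are not the build of the files.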

Additional observations from a re-analysis of the deposited data

How the results depend on the processing

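None of the 9 tested members was called under any single change of tool, scaling or filter, with the replicate block, or without any 1 library. The member called was Dnmt3b, in the blocked fit without pair 2, which was chosen after seeing the data. Counts of called genes, higher and lower, were 0 and 0 in edgeR without the block, 48 and 49 with the replicate block, 22 and 28 in DESeq2, 135 and 158 in DESeq2 with the block, and 6 and 4 without both replicate 2 libraries. Leaving out libraries or pairs gave 0 to 486 higher genes, 0 to 432 lower genes and 0 to 1 members, the large counts only in blocked fits without pair 2 (363 and 432) or pair 3 (486 and 275). Dot1l was called higher only in the blocked fit without pair 3 (log2 fold change 0.39, edgeR adjusted p of 0.00305). Dnmt1, Dnmt3a, Dnmt3b, Tet1 and Tet2 kept their direction in all 18 alternatives, with log2 fold changes of 0.10 to 0.22, 0.017 to 0.095, -0.32 to -0.15, 0.35 to 0.69 and 0.085 to 0.54. Without 1 library the others changed direction, with ranges of -0.13 to 0.040 for Uhrf1, -0.031 to 0.18 for Uhrf2, -0.23 to 0.23 for Dnmt3l and -0.020 to 0.13 for Tet3. Without 1 pair, with the replicate block, the ranges were -0.17 to 0.029 for Uhrf1, -0.022 to 0.13 for Uhrf2, -0.26 to 0.21 for Dnmt3l and -0.053 to 0.094 for Tet3, and limma-voom gave -0.058 for Dnmt3l. The cause was not tested. The Dnmt3b share difference ranged from -5.76 to -3.94 percentage points without 1 library. The mean within pairs was -4.80, which equals the difference of group means by construction and is no separate check. Tdg could not be tested at these counts, and counts of 39 to 273 limit Tet1, Tet2 and Dnmt3l.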
